A study of Mus musculus with 23 samples.

Results

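The response of the ovary to diet was compared between NZO/HlLtJ and C57BL/6J mice by RNA sequencing of polyA RNA, as the 44% minus 10% fat difference in NZO/HlLtJ minus the same difference in C57BL/6J. This strain-by-diet interaction rests on 15 of the 23 libraries of a study of inbred strains, taken into 4 groups by their sample titles: NZO/HlLtJ on 44% fat (4 libraries), NZO/HlLtJ on 10% fat (4 libraries), C57BL/6J on 44% fat (4 libraries) and C57BL/6J on 10% fat (3 libraries). All were wild-type females that started their diet at 6 weeks of age and were sampled at 15 weeks. Fiber is named in the labels of both diets. Sugar was also raised in the 44% fat diet, and its part cannot be told apart from that of fat. NZO/HlLtJ mice become obese through many genes, and C57BL/6J is the common laboratory strain. The question was whether diet acts on the ovary differently in NZO/HlLtJ than in C57BL/6J. The other 8 libraries, of CAST/EiJ, entered only the filter, the scaling and the shared estimate of spread. The labels name neither the animal behind each library nor the stage of the oestrous cycle, so p-values measure the spread between these libraries.

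Several of the gene groups described here belong to well-known systems. Chaperones of the endoplasmic reticulum (ER) fold secreted and membrane proteins, and when folding demand grows, the unfolded protein response switches on their genes through the transcription factors ATF6 and XBP1. SOCS proteins, among them SOCS3 and CISH, are induced by cytokine, leptin and prolactin signalling through STAT factors and damp the same signals. Chemokines are secreted proteins that draw leukocytes into tissue, and in the ovary leukocytes take part in ovulation and in the regression of the corpus luteum.

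The libraries held between 31.94 and 45.85 M estimated counts. Levels are given in counts per one M counts of the scaled library (CPM). All members of the granulosa cell, luteal cell and oocyte marker lists were above 0 in all 15 libraries. Neighbouring tissue was uneven: the summed level of 12 oviduct epithelium markers was 26.6 to 42.3 CPM over both NZO/HlLtJ groups, 42.3 to 318 CPM in C57BL/6J on 44% fat and 34.2 to 51.3 CPM in C57BL/6J on 10% fat, and replicate 1 of C57BL/6J on 44% fat was the high one. That library also had the highest summed level of 10 white adipocyte markers, 1024 CPM, against 125 to 597 CPM in the groups on 10% fat. The other libraries of its group had 197 to 766 CPM, and those of NZO/HlLtJ on 44% fat had 150.4 to 446 CPM. Sum and list score (the members' median log2 level against the middle library) did not rank the libraries alike. The score was 3.185 in that library and 2.435 in replicate 3 of NZO/HlLtJ on 44% fat, whose sum was 150.4 CPM. Within C57BL/6J on 10% fat, the summed level of 15 oocyte markers ran from 184 to 565 CPM (low in replicate 1). That of 14 granulosa markers ran from 2402 to 6506 CPM (high in replicate 2). In bulk tissue, fewer cells of a type and less RNA per cell cannot be told apart.

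No gene passed the adjusted threshold for the interaction. With edgeR's quasi-likelihood test and Benjamini-Hochberg adjustment over 20189 genes, 0 genes (0%) were past an adjusted p of 0.05, and the smallest adjusted p was 0.844. At an unadjusted p under 0.05 there were 791 genes (3.92%), of which 425 (2.11%) had a negative value, meaning a lower 44% to 10% fat ratio in NZO/HlLtJ than in C57BL/6J, and 366 (1.81%) a positive one. Evenly spread p-values would put a share of 0.05 under that level, more than was seen. DESeq2 called 5 genes, all negative, limma with library quality weights called 0, with 3074 genes at an unadjusted p under 0.05 and a smallest adjusted p of 0.0512, and limma on the deposited log2 values called 0, with 753. Ccnyl1 and Ccl11 were among the 5, and Cyp2a5, Fut9 and 4833423E24Rik, named because DESeq2 called them, had DESeq2 values of -16.5 or below on the log2 scale, while their unadjusted edgeR p-values were 0.156 to 0.629. The diet difference within each strain also gave 0 calls with edgeR (0%), with 710 genes (3.52%) at an unadjusted p under 0.05 in NZO/HlLtJ and 1783 genes (8.83%) in C57BL/6J. Among these, positive and negative values made up 1.28% and 2.24% of all genes in NZO/HlLtJ, and 3.46% and 5.37% in C57BL/6J. The share of genes at that level was thus below 0.05 in NZO/HlLtJ and above it in C57BL/6J. DESeq2 called 4 genes in NZO/HlLtJ and 51 in C57BL/6J.

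The diet differences of the strains were weakly alike across genes. Over the 12737 genes that averaged 5 CPM or more in some group, Pearson's r between the log2 differences was 0.448, and over all 20189 genes it was 0.190 (Spearman 0.221). These are descriptions across genes, which are not independent, and the strains share no library in this comparison but are scaled and fitted together. The median standard error of the interaction among genes of at least 5 CPM was 0.178 on the log2 scale, and 163 of these genes had a value beyond 1 in either direction.

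**Figure D1:**
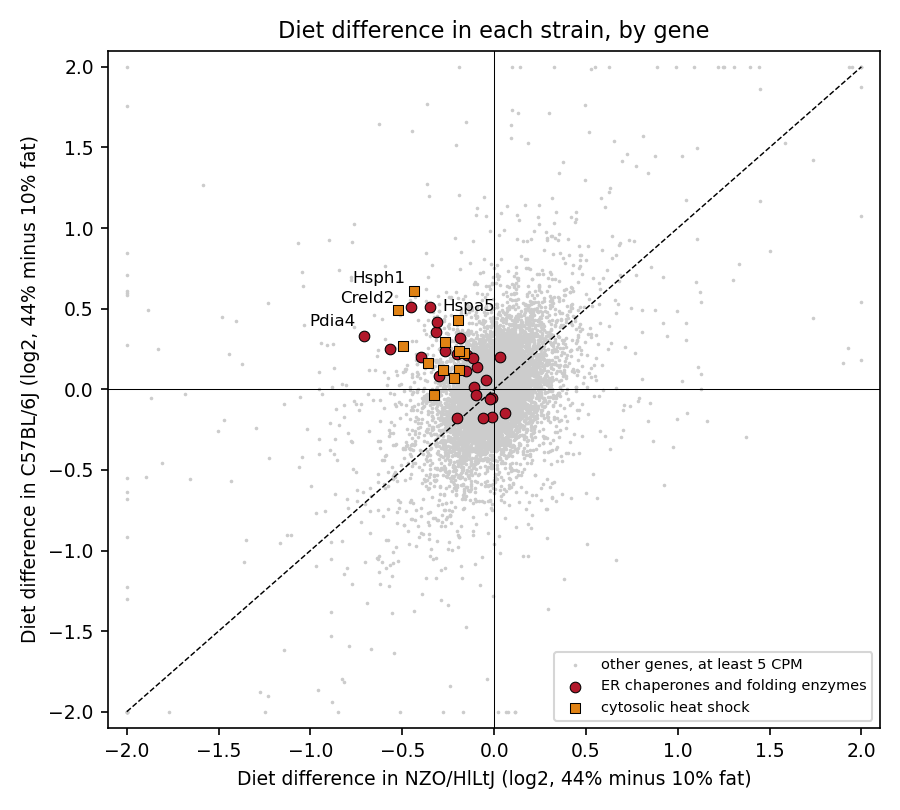
Each point is a gene, placed by its 44% minus 10% fat log2 difference in NZO/HlLtJ (horizontal axis) and in C57BL/6J (vertical axis), with values beyond 2 drawn at 2; the dashed line marks equal differences. Of the 25 ER chaperones and folding enzymes (circles), 17 lie at the upper left, with a negative value in NZO/HlLtJ and a positive one in C57BL/6J. So do 11 of the 12 genes of the cytosolic heat shock list (squares), which also holds the mitochondrial Hspe1 and Hspd1.

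ER chaperones and folding enzymes were the gene group with the most members at an unadjusted p under 0.05 for the interaction. Of the list's 25 tested members, 11 were negative at that level and 0 positive, against 2.11% and 1.81% of all genes, and 0 passed the adjusted threshold. The median interaction of the list was -0.31, against -0.01 over all genes. The list had a negative diet value in NZO/HlLtJ and a positive one in C57BL/6J for 17 members (68%), a pattern shown by 21.7% of all genes. The reverse pattern was shown by 19.2% of all genes. In NZO/HlLtJ alone 11 members were negative at an unadjusted p under 0.05 (2.24% of all genes), and in C57BL/6J alone 7 were positive (3.46%). The list was chosen with earlier results of these data known, so its counts are a description.

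Hspa5 (chromosome 2, 34771970 to 34777547, plus strand, GRCm38) encodes BiP, the main ER chaperone, which also holds the stress sensors inactive. It measured 779, 827, 942 and 982 CPM in NZO/HlLtJ on 44% fat, against 1188, 1185, 1029 and 1101 CPM in NZO/HlLtJ on 10% fat. In C57BL/6J it measured 1641, 1356, 1389 and 1166 CPM on 44% fat, against 832, 1192 and 893 CPM on 10% fat. All NZO/HlLtJ libraries on 44% fat lay below all those on 10% fat, while in C57BL/6J the highest library on 10% fat, replicate 2, overlapped the 44% fat group. The interaction was -0.86 ± 0.21 on the log2 scale (SE; unadjusted p = 0.000534, edgeR adjusted p = 1), made of -0.35 ± 0.14 in NZO/HlLtJ and 0.51 ± 0.16 in C57BL/6J. Without replicate 2 of C57BL/6J on 10% fat, the interaction was -1.03 ± 0.21 (edgeR adjusted p = 0.153). Without the library high in oviduct markers and a CAST/EiJ library of the same kind it was -0.76 ± 0.20 (edgeR adjusted p = 0.876), and 10 chaperones were then negative at an unadjusted p under 0.05.

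Creld2, an ER-resident protein that is induced by stress and secreted, was apart between diets in both strains. It measured 31.3, 33.0, 37.0 and 41.1 CPM in NZO/HlLtJ on 44% fat, against 45.7, 47.9, 51.9 and 49.1 CPM on 10% fat. C57BL/6J libraries had 73.8, 56.0, 60.3 and 45.1 CPM on 44% fat, against 36.4, 43.6 and 43.9 CPM on 10% fat. The interaction was -0.96 ± 0.31 (unadjusted p = 0.00571, edgeR adjusted p = 1). Such separation in opposite directions was seen in 14 genes (0.0693%) of all those tested, 10 of them (0.0495%) lower in NZO/HlLtJ and higher in C57BL/6J on 44% fat and 4 (0.0198%) the reverse. Each strain alone separated few genes: 1.64% were lower in NZO/HlLtJ and 3.2% higher in C57BL/6J, and for the reverse 1.32% and 4.88%. Whether the joint shares differ from chance was not tested. Atp2a2, the calcium pump that fills the ER store and on which many chaperones depend, was another of the 14 genes, named after its values were seen. It measured 311, 349, 327 and 348 CPM in NZO/HlLtJ on 44% fat, against 365, 417, 357 and 359.7 CPM on 10% fat. The levels in C57BL/6J were 414, 412, 432 and 379.8 CPM on 44% fat, against 356, 361 and 349.9 CPM on 10% fat. Its interaction was -0.37 ± 0.11 (unadjusted p = 0.00391, edgeR adjusted p = 1).

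Most other chaperones had a negative interaction too, and the 5 members with a positive value were Sil1, Mesdc2, Dnajc10, Ppib and Mzb1. Pdia4, a disulfide isomerase, measured 245, 242, 272 and 268 CPM in NZO/HlLtJ on 44% fat, against 511, 291, 386 and 493 CPM on 10% fat. C57BL/6J ovaries gave 480.1, 846, 424 and 441 CPM on 44% fat, against 509, 368 and 433 CPM on 10% fat. The NZO/HlLtJ groups were apart and the C57BL/6J groups overlapped, and the interaction was -1.04 ± 0.36 (unadjusted p = 0.00966). Sdf2l1, a partner of BiP in preventing aggregation, had an interaction of -0.81 ± 0.28, Manf, a secreted ER stress protein, -0.72 ± 0.22, Hyou1, the large chaperone that exchanges nucleotide on BiP, -0.67 ± 0.18, and the BiP co-chaperone Dnajb11 -0.50 ± 0.15. Hsp90b1 (GRP94) stood at -0.50 ± 0.17 and Dnajc3, which curbs the PERK kinase, at -0.42 ± 0.14. All of these had an edgeR adjusted p of 1. In NZO/HlLtJ 8 of the 25 members were lower on 44% fat without overlap (1.64% of all genes) and 0 higher (1.32%). In C57BL/6J 3 members were higher without overlap (3.2%) and 1 lower (4.88%).

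**Figure D2:**
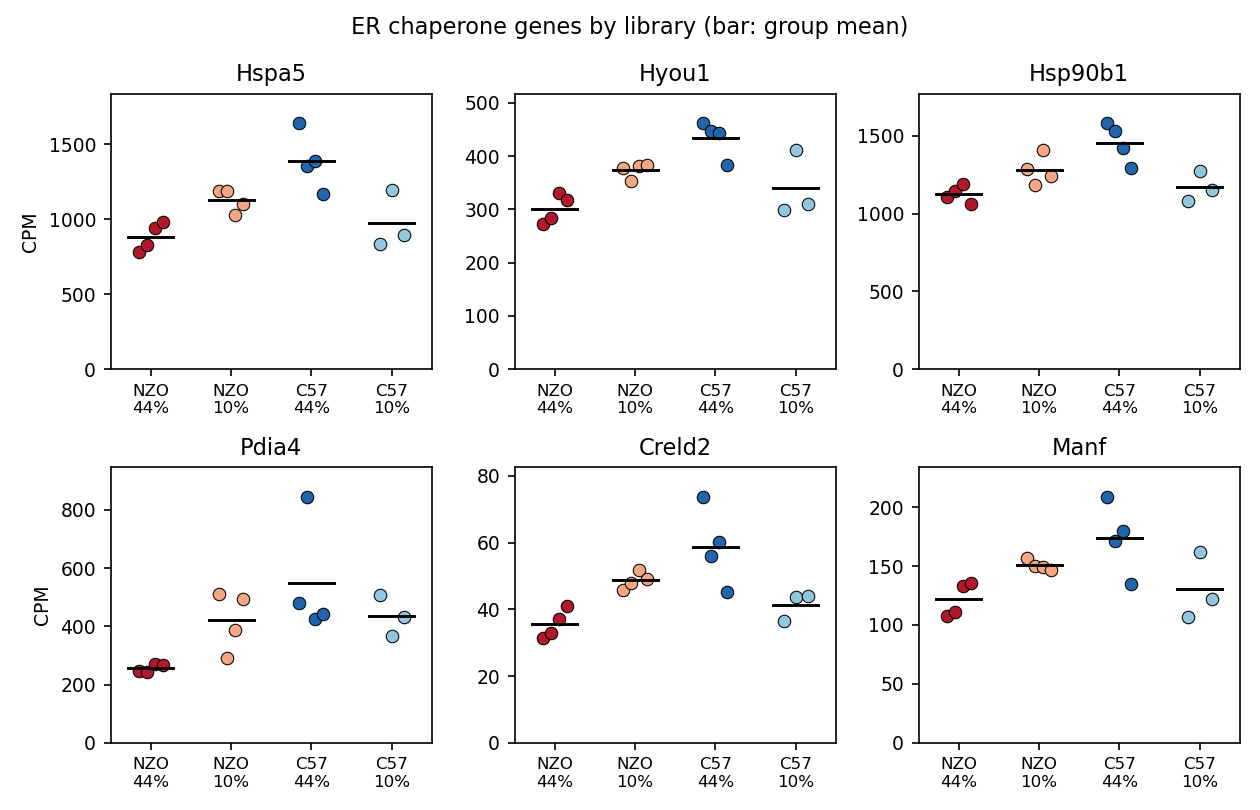
CPM of 6 ER chaperone genes in each library, with bars at group means; NZO is NZO/HlLtJ, C57 is C57BL/6J, and the percentage is dietary fat. In NZO/HlLtJ the 44% fat libraries of Hspa5 lie at 779 to 982 CPM, below 1029 to 1188 CPM on 10% fat, while in C57BL/6J the 44% fat libraries lie at 1166 to 1641 CPM, against 832 to 1192 CPM on 10% fat.

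The promoters of several of these genes hold the ER stress response element, the site CCAAT, any 9 bases, CCACG, through which ATF6 acts together with NF-Y. RefSeq promoter windows (build GRCm38.p6), cut to the 250 bases before the transcript start and searched on both strands, were found for 18 of the 25 list members, and 7 of them (38.9%) held the element, against 21 of 13114 tested genes with a window (0.16%) and 0.113% of all windows in the table. The element contains a CCAAT box, which alone was in 16 of the 18 and in 39.1% of tested genes, and CCACG alone was in 14 of the 18 and in 42.7% of tested genes. The 7 members with the element were Calr, Canx, Creld2, Dnajc3, Hsp90b1, Hspa5 and Pdia6, with a median interaction of -0.42, and the 11 without it had a median of -0.27. Both sets ranged widely: Pdia4 (-1.04), Sdf2l1 (-0.81), Fkbp11 (-0.60) and Dnajb11 (-0.50) lacked the element, and Canx (-0.23) held it. Shown here are the windows of Hspa5 (chr2:34771840-34772089, plus strand), Creld2 (chr15:88819396-88819645, plus strand) and Hsp90b1 (chr10:86705445-86705694, minus strand), as examples that hold the element, and of Pdia4 (chr6:47813513-47813762, minus strand), the member without it that had the largest negative interaction. The element, in either orientation, is in capitals.
Hspa5: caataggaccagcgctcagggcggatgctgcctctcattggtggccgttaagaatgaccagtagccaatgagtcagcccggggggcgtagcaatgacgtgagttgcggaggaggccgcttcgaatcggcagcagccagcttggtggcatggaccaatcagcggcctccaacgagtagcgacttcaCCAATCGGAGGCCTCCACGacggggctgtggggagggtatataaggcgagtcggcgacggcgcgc
Creld2: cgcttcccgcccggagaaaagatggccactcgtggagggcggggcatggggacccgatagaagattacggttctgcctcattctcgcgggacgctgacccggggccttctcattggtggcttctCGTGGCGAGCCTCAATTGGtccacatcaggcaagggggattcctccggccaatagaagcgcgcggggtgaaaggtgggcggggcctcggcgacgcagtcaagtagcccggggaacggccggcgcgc
Hsp90b1: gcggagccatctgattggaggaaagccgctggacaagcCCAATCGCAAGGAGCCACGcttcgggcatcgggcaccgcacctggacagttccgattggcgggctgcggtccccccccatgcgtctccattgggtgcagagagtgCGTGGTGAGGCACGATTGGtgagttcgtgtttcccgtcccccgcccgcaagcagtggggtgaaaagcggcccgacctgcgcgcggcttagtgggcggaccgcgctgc
Pdia4: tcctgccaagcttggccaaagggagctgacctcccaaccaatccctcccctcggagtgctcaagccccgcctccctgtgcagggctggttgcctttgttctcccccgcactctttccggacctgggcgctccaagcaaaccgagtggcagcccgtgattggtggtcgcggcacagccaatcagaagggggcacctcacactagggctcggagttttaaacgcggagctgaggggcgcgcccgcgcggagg
Hsp90b1 held 2 elements, Hspa5 and Creld2 held 1 and Pdia4 held 0. ATF6 is known to act on chaperone genes, so the share with its element describes the list and not the diet values. The match is of letters and does not show binding. The authors' annotation starts Hspa5 and Hsp90b1 upstream of the RefSeq start, within these windows.

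ER-associated degradation and export genes, which remove misfolded proteins or carry proteins into or onward from the ER, were also mostly negative in value. Their median was nearer 0. Of 19 members, 16 were negative in value, against 51.4% of all genes, and 3 were so at an unadjusted p under 0.05, against 2.11% (Sec61a1, the channel of the translocon, Sec23b, a coat protein of transport vesicles, and Syvn1, the ubiquitin ligase of this pathway), and the median was -0.15. Sec61a1 measured 216, 217, 233 and 240.0 CPM in NZO/HlLtJ on 44% fat, against 259, 267, 258 and 256 CPM on 10% fat. In C57BL/6J it measured 286, 294, 294 and 252 CPM on 44% fat, against 258, 267 and 259 CPM on 10% fat. The NZO/HlLtJ groups were apart, the C57BL/6J groups overlapped, and the interaction was -0.31 ± 0.10. Among 17 sensors and stress factors of the unfolded protein response, 14 were negative in value and 3 at an unadjusted p under 0.05, against 51.4% and 2.11% of all genes, with a median of -0.21. These were Xbp1, whose spliced message drives chaperone genes (-0.42 ± 0.19), Eif2ak3, the PERK kinase (-0.27 ± 0.12), and the stress factor Atf3 (-1.23 ± 0.52). None of these members passed the adjusted threshold with edgeR.

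The 12 genes of the cytosolic heat shock list were all negative in value, against 51.4% of all genes. The list also holds Hspe1 and Hspd1, which are mitochondrial. The median was -0.47, and 11 members (91.7%) were negative in NZO/HlLtJ and positive in C57BL/6J, but 0 reached an unadjusted p under 0.05. Hsp90aa1, the inducible cytosolic HSP90, measured 568, 615, 568 and 586 CPM in NZO/HlLtJ on 44% fat, against 629, 854, 586 and 615 CPM on 10% fat. C57BL/6J libraries had 911, 887, 880.0 and 676 CPM on 44% fat, against 571, 636 and 664 CPM on 10% fat. The C57BL/6J groups were apart, the NZO/HlLtJ groups overlapped, and the interaction was -0.63 ± 0.34. Hsph1, an HSP110 chaperone, had -1.04 ± 0.54, Hspe1 and Hspd1, the mitochondrial chaperonin pair, had -0.52 ± 0.26 and -0.40 ± 0.20, and Hspa1a, the stress-induced HSP70, had -0.77 ± 0.83.

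**Figure D3:**
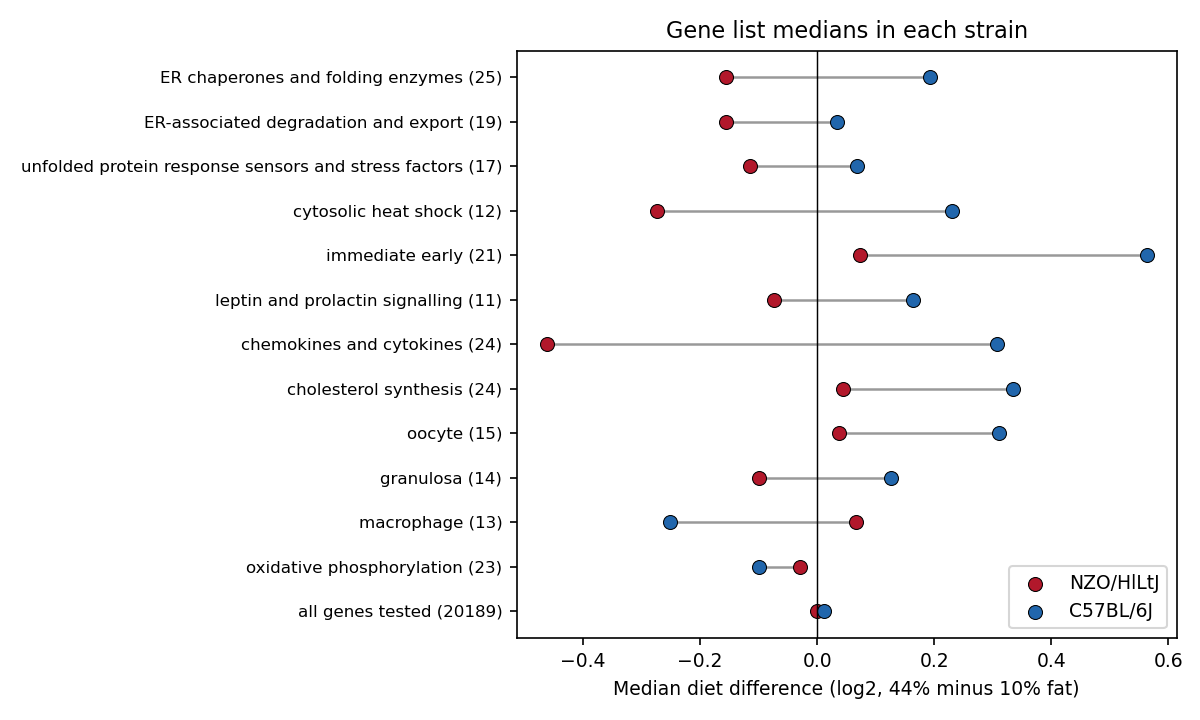
Median 44% minus 10% fat log2 difference over the tested members of each gene list (number in brackets), with NZO/HlLtJ and C57BL/6J joined by a line. The heat shock list stands at -0.27 in NZO/HlLtJ and 0.23 in C57BL/6J and the ER chaperone list at -0.15 and 0.19, while all genes stand at -0.001 and 0.012.

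Ccnyl1 (chromosome 1, 64690455 to 64725644, plus strand, GRCm38), a cyclin Y-like protein, had the smallest p of all genes for the interaction. It measured 22.7, 24.9, 21.6 and 23.7 CPM in NZO/HlLtJ on 44% fat, against 27.8, 30.1, 26.5 and 26.9 CPM on 10% fat. The levels in C57BL/6J were 28.9, 28.6, 28.5 and 24.5 CPM on 44% fat, against 22.6, 21.7 and 22.4 CPM on 10% fat. The groups were apart in both strains and in opposite directions. The interaction was -0.57 ± 0.11 (unadjusted p = 4.18e-05), with an adjusted p of 0.844 by edgeR and 0.00664 by DESeq2.

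Inhibitors of cytokine signalling had the smallest p-values among the 11 genes of leptin and prolactin signalling. Socs3 (chromosome 11, 117966079 to 117970047, minus strand, GRCm38) measured 12.4, 14.0, 15.1 and 16.8 CPM in NZO/HlLtJ on 44% fat, against 18.5, 17.9, 19.4 and 28.8 CPM on 10% fat. C57BL/6J ovaries gave 17.4, 16.1, 29.1 and 18.1 CPM on 44% fat, against 14.6, 14.4 and 11.6 CPM on 10% fat. The groups were apart in opposite directions, with an interaction of -1.11 ± 0.25 (unadjusted p = 0.000265, edgeR adjusted p = 1). Cish, which is induced by STAT5, measured 13.2, 9.84, 10.6 and 11.4 CPM in NZO/HlLtJ on 44% fat, against 13.1, 20.4, 9.57 and 18.2 CPM on 10% fat. In C57BL/6J it measured 50.9, 44.4, 117 and 31.2 CPM on 44% fat, against 19.1, 20.4 and 20.6 CPM on 10% fat. Every C57BL/6J library on 44% fat was above those on 10% fat, the NZO/HlLtJ groups overlapped, and the interaction was -2.05 ± 0.52 (unadjusted p = 0.000872, edgeR adjusted p = 1). For the receptors and the shared factor the interaction was 0.09 ± 0.26 for the leptin receptor Lepr, 0.04 ± 0.36 for the prolactin receptor Prlr and -0.15 ± 0.22 for Stat3, and the sign of each of these turned under some alternatives. Socs3 and Cish were the only members at an unadjusted p under 0.05, 2 of 11, both negative, against 2.11% of all genes, and the list median was -0.13.

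Chemokine genes had large negative values that rested on a few libraries. Of 24 chemokines and cytokines, 22 were negative in value and 5 at an unadjusted p under 0.05, against 51.4% and 2.11% of all genes, and 0 were past the adjusted threshold with edgeR, with a median of -0.91. Ccl11 (eotaxin, which attracts eosinophils) measured 1.06, 1.21, 0.516 and 1.11 CPM in NZO/HlLtJ on 44% fat, against 9.60, 1.05, 1.28 and 9.58 CPM on 10% fat. C57BL/6J libraries had 0.558, 0.704, 0.581 and 0.151 CPM on 44% fat, against 0.149, 0.0981 and 0.0624 CPM on 10% fat. In NZO/HlLtJ the difference lay in replicates 1 and 4 on 10% fat, the groups overlapped, and the C57BL/6J groups, all under 1 CPM, were apart by a small margin. The interaction was -4.67 ± 1.09 (unadjusted p = 0.000374), and the edgeR adjusted p was 1, while that of DESeq2 was 0.0149.

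The monocyte chemokines repeated this pattern of libraries. Ccl2 measured 0.818, 1.13, 0.888 and 0.709 CPM in NZO/HlLtJ on 44% fat, against 6.23, 0.618, 1.28 and 12.8 CPM on 10% fat. The levels in C57BL/6J were 1.03, 10.3, 0.996 and 2.34 CPM on 44% fat, against 3.60, 0.932 and 2.15 CPM on 10% fat. Replicates 1 and 4 of NZO/HlLtJ on 10% fat and replicate 2 of C57BL/6J on 44% fat were high, the groups overlapped in both strains, and the interaction was -3.27 ± 1.26. Its neighbour Ccl7 had -3.91 ± 1.34, Ccl12 had -2.77 ± 0.93 and the neutrophil attractant Cxcl1 had -2.67 ± 0.90. Neutrophil markers, 5 genes, summed to 3.81 to 6.67 CPM in NZO/HlLtJ on 44% fat, 3.71 to 11.1 CPM in NZO/HlLtJ on 10% fat, 7.52 to 31.8 CPM in C57BL/6J on 44% fat and 6.03 to 8.83 CPM in C57BL/6J on 10% fat. The 31.8 CPM was replicate 1 of C57BL/6J on 44% fat, the library high in oviduct markers. Its neutrophil list score was 0.298, within the 0.281 to 0.412 of its group, so the high sum was not shared by most members. The highest score was 1.964, in replicate 4 of NZO/HlLtJ on 10% fat. Replicate 2 of C57BL/6J on 44% fat, high in Ccl2, had a sum of 7.52 CPM. In NZO/HlLtJ on 10% fat, replicate 4 had 11.1 CPM and replicate 1 had 4.43 CPM. The part of neutrophils in the chemokine values was not tested. Macrophage markers were positive in value for the interaction in 12 of 13 members, against 9791 of all 20189 genes. Their median was 0.18, and 0.08 without replicate 2 of NZO/HlLtJ on 10% fat. Within the identifier series 76 (1 of 3 groups of library numbers), the macrophage list median was 0.77 and the chemokine list median -0.04.

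**Figure D4:**
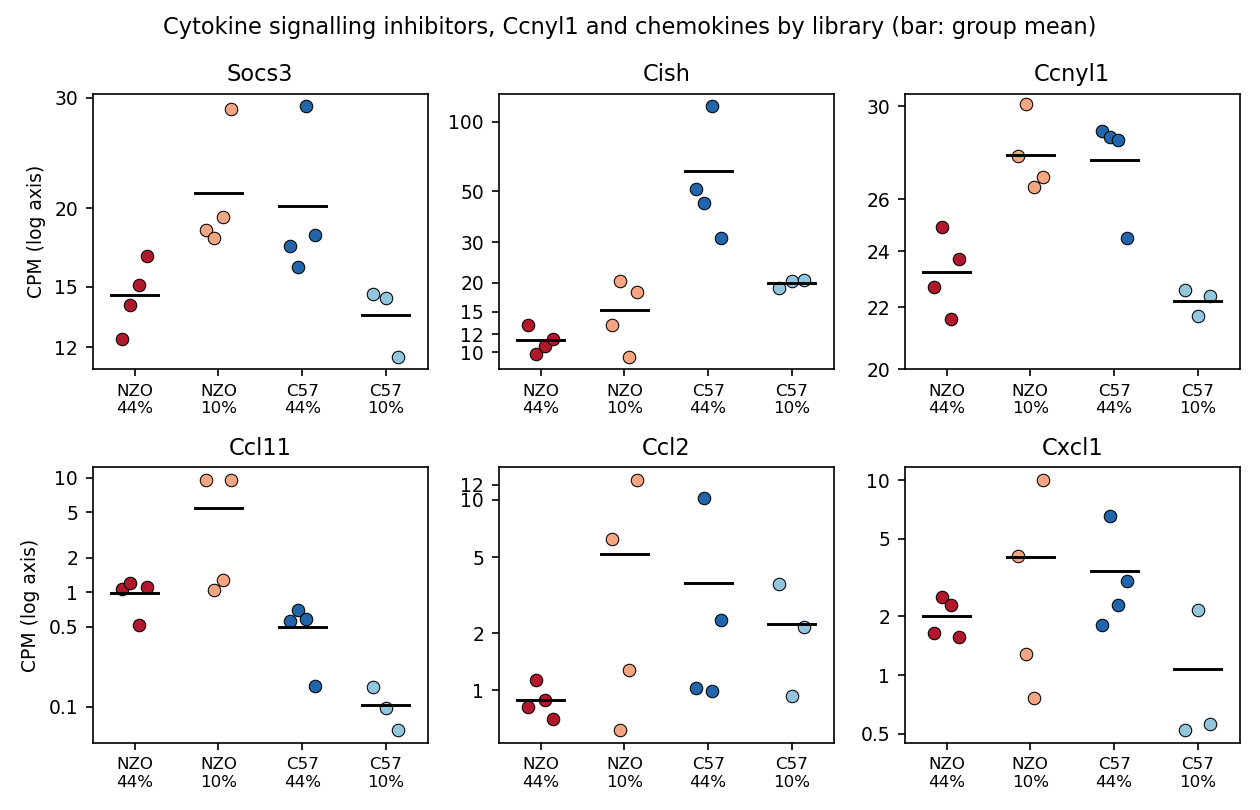
CPM on a log axis of Socs3, Cish, Ccnyl1 and 3 chemokine genes in each library, with bars at group means and group names as NZO (NZO/HlLtJ) or C57 (C57BL/6J) with the percentage of dietary fat. Socs3 and Ccnyl1 separate by diet in opposite directions in the strains, while Ccl11 in NZO/HlLtJ on 10% fat splits into 9.60 and 9.58 CPM against 1.05 and 1.28 CPM.

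Immediate early genes, switched on quickly after a stimulus, were negative in value in 20 of 21 members and at an unadjusted p under 0.05 in 3, against 51.4% and 2.11% of all genes, with a median of -0.42. Their diet values were positive in 11 members in NZO/HlLtJ and in 19 in C57BL/6J, against 10018 and 10525 of all 20189 genes. Egr3 had an interaction of -2.38 ± 0.81, Egr2 of -1.36 ± 0.48 and Klf4 of -0.66 ± 0.30, all with an edgeR adjusted p of 1, and Fos stood at -0.60 ± 0.62. Fos was -1.37 without replicate 2 of C57BL/6J on 10% fat and -0.28 without replicate 2 of NZO/HlLtJ on 10% fat. List scores, taken as the members' median log2 level against the middle library, overlapped in both strains, and the lowest was -0.68, in replicate 3 of NZO/HlLtJ on 44% fat.

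Cholesterol synthesis genes were negative in value in 23 of 24 members, against 51.4% of all genes, with a median of -0.29, and 0 reached an unadjusted p under 0.05. List scores were high in replicates 1 and 3 of C57BL/6J on 44% fat, at 0.55 and 0.71, and without replicate 3 the list median was -0.09. Mvd, a decarboxylase of the early steps, measured 17.4, 20.3, 10.4 and 19.5 CPM in NZO/HlLtJ on 44% fat, against 12.2, 22.3, 14.6 and 10.9 CPM on 10% fat. C57BL/6J ovaries on 44% fat gave 43.3 and 49.3 CPM in replicates 1 and 3 and at most 13.8 CPM in the others, against 14.0, 13.5 and 12.7 CPM on 10% fat. The groups overlapped in both strains, and the interaction was -0.97 ± 0.54 (edgeR adjusted p = 1). Hsd17b7, an enzyme of this pathway that is strongly expressed in the rodent corpus luteum, split the same libraries more widely and was named after its values were seen. It ranged from 47.9 to 399 CPM in NZO/HlLtJ on 44% fat, against 43.7 to 279 CPM on 10% fat, and from 98.3 to 1270.5 CPM in C57BL/6J on 44% fat, against 46.8 to 297 CPM on 10% fat. Its groups overlapped in both strains.

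**Figure D5:**
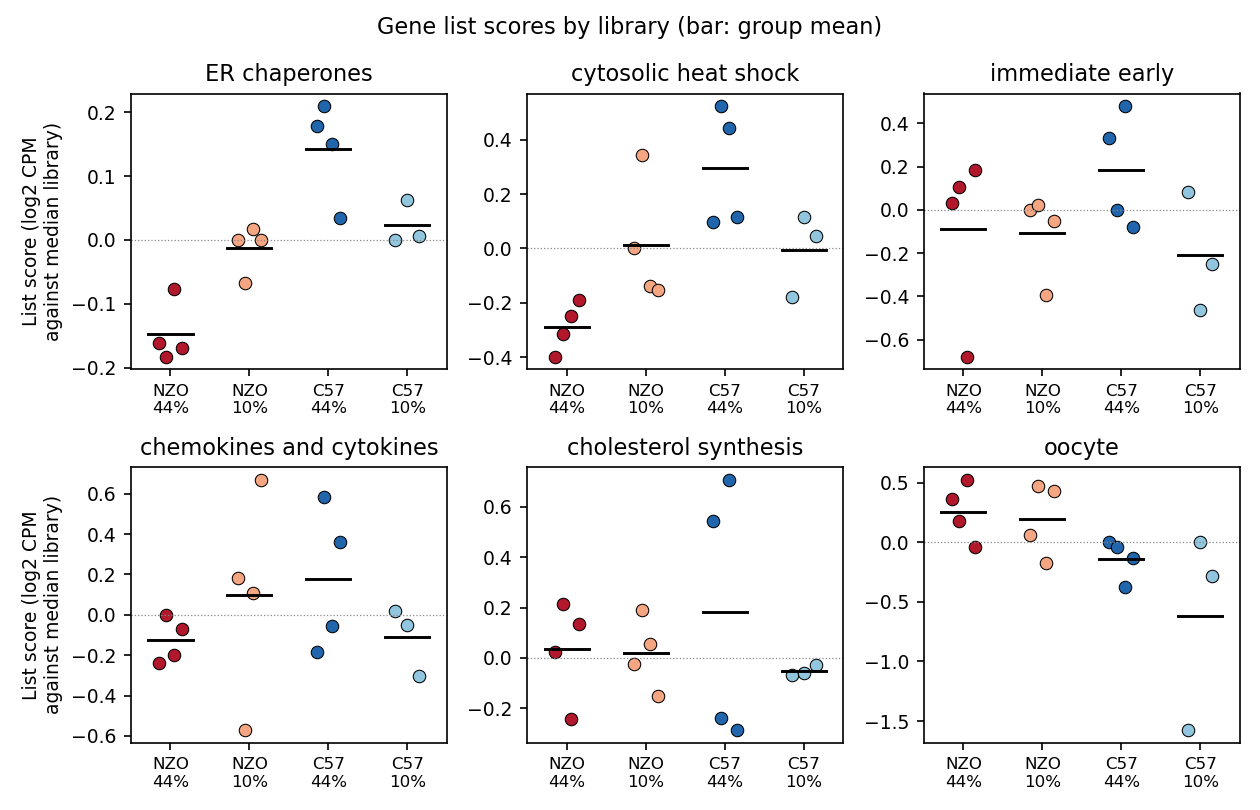
List score of each library (the members' median log2 CPM against the middle library) for 6 gene lists, with bars at group means and group names as NZO (NZO/HlLtJ) or C57 (C57BL/6J) with the percentage of dietary fat. The ER chaperone scores of NZO/HlLtJ on 44% fat, -0.18 to -0.08, lie below those on 10% fat, -0.07 to 0.02, whereas the cholesterol synthesis scores of C57BL/6J on 44% fat split into a high and a low pair of libraries.

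Among the remaining genes with the smallest p and a negative value, none passed the adjusted threshold with edgeR. Mlec, an ER lectin that checks new glycoproteins, had an interaction of -0.35 ± 0.10, with NZO/HlLtJ libraries of 335, 328, 333 and 362 CPM on 44% fat, against 412, 389, 399 and 406 CPM on 10% fat. In C57BL/6J it measured 464, 416, 476 and 388 CPM on 44% fat, against 390.3, 434 and 389 CPM on 10% fat, so only the NZO/HlLtJ groups were apart. The chromatin remodeller Chd7 had -0.69 ± 0.19, the helicase Rad54l2 -0.34 ± 0.10, the septin Sept5 -0.79 ± 0.20 and the adaptor protein Efs -1.69 ± 0.44.

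In the positive direction, 8 of the 12 genes named by smallest p were lower on 44% fat without overlap in C57BL/6J (4.88% of all genes), a description since p chose them. Net1, an exchange factor for the small GTPase RhoA, measured 107, 104, 114 and 93.8 CPM in NZO/HlLtJ on 44% fat, against 116, 106, 81.8 and 106 CPM on 10% fat. C57BL/6J libraries had 103, 102, 105 and 102 CPM on 44% fat, against 176, 134 and 166 CPM on 10% fat. The C57BL/6J groups were apart, the NZO/HlLtJ groups overlapped, and the interaction was 0.65 ± 0.18 (unadjusted p = 0.00132, edgeR adjusted p = 1). Lhpp, a histidine phosphatase, measured 15.2, 16.0, 18.2 and 19.3 CPM in NZO/HlLtJ on 44% fat, against 17.3, 19.2, 24.8 and 17.4 CPM on 10% fat. The levels in C57BL/6J were 17.3, 17.3, 17.0 and 17.9 CPM on 44% fat, against 37.2, 24.3 and 41.1 CPM on 10% fat, and the interaction was 0.78 ± 0.22. In both genes, replicate 2 of C57BL/6J on 10% fat was the lowest of its group.

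Clec1b, a C-type lectin of platelets, and Slc25a53, a mitochondrial carrier, were instead higher on 44% fat without overlap in NZO/HlLtJ. Clec1b measured 17.5, 16.6, 16.8 and 15.4 CPM in NZO/HlLtJ on 44% fat, against 10.4, 10.3, 10.2 and 12.7 CPM on 10% fat. C57BL/6J ovaries gave 2.12, 3.10, 2.27 and 2.94 CPM on 44% fat, against 3.35, 3.39 and 2.81 CPM on 10% fat, and the interaction was 0.89 ± 0.26. Slc25a53 had 0.50 ± 0.14, with groups apart in both strains. The others were Rab9 (0.38 ± 0.10), Ccdc28a (0.59 ± 0.17), Rem1 (1.19 ± 0.36), Rftn2 (0.69 ± 0.21), Bre (0.46 ± 0.14) and Hebp1 (0.55 ± 0.17), all with an edgeR adjusted p of 1. Naip1 (2.59 ± 0.81) belongs to a family of near-identical genes among which reads may be split, and Zfp607 (1.74 ± 0.50) was at most 0.287 CPM in every NZO/HlLtJ library, so both values are uncertain. In C57BL/6J on 10% fat, Naip1 was 1.15 CPM in replicate 2, below the 1.38 to 2.01 CPM on 44% fat. Rem1 was 4.88 CPM in the same library, within the 4.37 to 6.44 CPM on 44% fat. For Naip1 and Rem1, the higher level on 10% fat in C57BL/6J thus lay in replicates 1 and 3 alone.

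The numbers in the library identifiers start with 76, 82 or 90, and what these series stand for is not given. Series 82 lacks NZO/HlLtJ on 44% fat and series 90 lacks both groups on 10% fat, which leaves series 76 as the one with all 4 groups, with 1 C57BL/6J library on each diet. These were replicate 1 on 44% fat, the library with 318 CPM of oviduct and 1024 CPM of white adipocyte markers, and replicate 1 on 10% fat, the one with 184 CPM of oocyte markers, and the part of this tissue content in the values was not tested. Within the series edgeR gave 734 calls for the interaction (3.61% of genes tested there), 452 positive (2.23%) and 282 negative (1.39%), from a fit that assumes the lone C57BL/6J libraries vary like the others. Hspa5 stood at -1.51 ± 0.15 there (edgeR adjusted p = 0.00331), and Creld2, Dnajb11, Hyou1, Manf and Sdf2l1 were also past the threshold, so that 6 of the 25 chaperones were. Of the other genes described, Net1, Lhpp, Clec1b, Rem1, Rftn2 and Naip1 passed it with a positive value and Sept5, Chd7, Syvn1 and Xbp1 with a negative one. Pdia4 stood at -0.60 ± 0.57 (edgeR adjusted p = 0.659), Ccl2 turned to 0.02 ± 2.32, Socs3 stood at -0.68 ± 0.21 (edgeR adjusted p = 0.124) and Cish at -1.93 ± 0.46 (edgeR adjusted p = 0.122). With the series as a term over all libraries, edgeR called 0 genes for the interaction, with 676 at an unadjusted p under 0.05.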

How the data were processed

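PolyA RNA of ovaries was sequenced as 100 bp read pairs, per the labels' protocols. The authors deposited estimated counts per gene and, made from the same libraries, variance-stabilised values on a log2 scale. The submitters' processing notes name GRCm38 and DESeq2, with no role or version; the aligner and counting tool are not given in the sources used here. Of the deposited counts, 27.4% were not whole, and they were rounded. Gene coordinates are from the authors' deposited annotation.

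Of 24716 genes, 20189 passed edgeR's filterByExpr (minimum count 10, minimum total 15). Counts were scaled by TMM factors and fitted with edgeR 4.0.16 (robust quasi-likelihood, R 4.3.3) with 6 group means over all 23 libraries, so that all groups share an estimate of the spread. Contrasts were the interaction and each strain's diet difference, with Benjamini-Hochberg adjustment over all genes tested and a threshold of 0.05. The standard error of a log2 value is that value over the root of its F statistic. Levels are CPM of the scaled libraries, and 1 CPM stands for 31.94 to 45.85 counts before scaling. Chi-square over degrees of freedom was 12.4 to 168.54 for the 21 pairs of libraries within groups, and no pair looked like a repeat deposit. The fit was tested on simulated counts. Groups came from the sample titles, and replicates are numbered in deposit order, which pairs nothing.

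The 12 genes with the smallest interaction p in each direction are named, if they had a mean of at least 5 CPM in a group, a gene name that is not provisional, and no pseudogene type. From lists described, up to 6 members with the smallest p and the defining member are named. Pdia4, Sdf2l1, Hsp90b1, Atp2a2 and Hsd17b7 were added after their values were seen. Gene lists were described by counts and medians, with no set test. The members and lists were chosen with earlier results of these data known. Promoters were RefSeq windows of build GRCm38.p6. Alternatives were DESeq2 1.42.0, scaling by relative log expression, no filter on low counts, a fit of the 4 groups alone, identifier series as a term, only series 76, limma 3.58.1 with library quality weights, limma on the deposited log2 values, leaving out both libraries high in oviduct markers (C57BL/6J on 44% fat replicate 1 and CAST/EiJ on 10% fat replicate 2), and leaving out each of the 15 libraries.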

Additional observations from a re-analysis of the deposited data

Results flagged for a closer look

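Of 216 sets of 4 libraries examined, over 57 genes and 15 gene lists in the 3 groups of 4, 19 held a value far from the other 3, and chance alone gives about 1 in 20. In NZO/HlLtJ on 44% fat these were Rem1 at 6.82 CPM, Hebp1 at 18.5 CPM and Hsd17b7 at 47.9 CPM in replicate 3, and Efs at 20.3 CPM in replicate 2. In NZO/HlLtJ on 10% fat they were Clec1b at 12.7 CPM and Socs3 at 28.8 CPM in replicate 4, Hebp1 at 17.7 CPM, Dnajc3 at 194 CPM and Sdf2l1 at 30.9 CPM in replicate 3, and Hsp90aa1 at 854 CPM, Atp2a2 at 417 CPM and Hsd17b7 at 279 CPM in replicate 2. In C57BL/6J on 44% fat, replicate 4 was low for Ccnyl1 at 24.5 CPM, Sept5 at 19.6 CPM, Chd7 at 20.9 CPM and Hsp90aa1 at 676 CPM. Replicate 3 of that group was high for Socs3 at 29.1 CPM, and replicate 2 for Ccl2 at 10.3 CPM and Pdia4 at 846 CPM.

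Among the genes described, 5 had diet groups that did not overlap in either strain and lay in opposite order. Their interaction on the log2 scale was -0.959 for Creld2, -0.370 for Atp2a2, -1.112 for Socs3, -0.574 for Ccnyl1 and 0.498 for Slc25a53. The difference itself was tested by edgeR's interaction term, with an adjusted p of 0.844 for Ccnyl1 and 1 for the other genes.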

How the results depend on the processing

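The interaction had 0 calls with edgeR and also 0 under each of the 24 alternatives except DESeq2 (5 genes) and series 76 alone (734 genes). The diet difference in NZO/HlLtJ gave 4 calls with DESeq2, 2 with limma quality weights and 0 to 1 when libraries were left out, the 1 without NZO/HlLtJ 44% fat replicate 3. In C57BL/6J it gave 51 calls with DESeq2, 1361 in series 76, 791 with limma quality weights and 0 to 330 when libraries were left out, the 330 without C57BL/6J 10% fat replicate 2, which had a low quality weight of 0.313. That library was also the one with 6506 CPM of granulosa markers. Leaving out that library also brought the interaction genes at an unadjusted p under 0.05 to 1656, and leaving out NZO/HlLtJ 10% fat replicate 3 to 1300, against 791 with all libraries and a lowest of 612. The count of negative ER chaperones at that level was 9 to 15 over the alternatives, and the list median -0.399 to -0.24. The cause of these changes was not tested.

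Of 57 genes, 5 changed sign. Ccl2 was 0.024 in series 76. Stat3 was 0.106 there and -0.281 to 0.012 with libraries left out. Prlr was -0.028 on the deposited log2 values, 0.352 in series 76 and -0.159 to 0.239 with libraries left out. Lepr was 0.631 in series 76 and -0.061 to 0.313 with libraries left out. Hsd17b7 was 0.222 with quality weights and -2.160 to 0.257 with libraries left out. No paired analysis was possible because the labels give no replicate numbers. Depth limits genes of low level, and Ccl11 was below 1 CPM in every C57BL/6J library.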

Other observations

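Oocyte markers were negative in value for the interaction in 14 of 15 members, against 51.4% of all genes. Their median was -0.28, and without C57BL/6J 10% fat replicate 1 it was 0.09. Adgre1, which encodes the macrophage marker F4/80, had an interaction of 0.97 (unadjusted p = 0.0127, edgeR adjusted p = 1). It was the only 1 of 13 macrophage markers at an unadjusted p under 0.05, against 1.81% of all genes with a positive value. Genes of oxidative phosphorylation were positive in value in 22 of 23 members, against 9791 of all 20189 genes, with a median of 0.06. Oviduct epithelium markers had a median of -2.55, and -0.11 without both libraries high in these markers.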
